A study of Mus musculus with 29 samples.

Results

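Colon tissue taken at the end of a first 7-day course of DSS was compared with colon tissue taken after 3 cycles of DSS. Dextran sulfate sodium (DSS) is a sulfated polysaccharide which, given in drinking water, injures the colonic epithelium and lets luminal bacteria reach the mucosa. All arrays labelled acute colitis (replicates B2, B3, B4 and C3) and all arrays labelled 3 cycles DSS (replicates F1, F3, F5, G2 and G3) were used, together 9 of the 29 arrays. All mice were C57BL6J females, 6 weeks old at the start of the study. Acute colitis mice drank DSS for 7 days and were sacrificed without a recovery period. Mice of the other group went through 3 rounds, each of 7 days of DSS and then 2 weeks of recovery, and the study's methods give a higher DSS concentration for the later rounds. Thus the number of courses, the dose and the time since the last DSS cannot be told apart in this comparison. The same holds for the age at first DSS and the time between first exposure and sacrifice. Arrays of 5 control mice without DSS served as the level of uninflamed colon. One mouse gave one array, a piece of the most infiltrated colon was taken, and no source used here names cages or the meaning of the label letters. Another array of acute colitis was not analysed here.

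The bowel wall holds an epithelium of absorptive colonocytes and goblet cells, a lamina propria with immune and stromal cells, and layers of smooth muscle. In acute injury, neutrophils and monocytes enter from the blood, cytokines such as interleukin 1 and interleukin 6 spread the alarm, and surviving crypt cells divide to close the wound. B cells, which gather in lymphoid follicles, and plasma cells, which make antibody, need days to weeks to expand. Each of these populations has its own transcripts, and whole tissue measures them as a mixture.

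Each array measured 35511 probe sets, which are groups of short DNA probes usually directed at 1 transcript, and all values are log2 RMA intensities, on which a difference of 1 is a 2-fold change of intensity. Values of single arrays are given in the order B2, B3, B4, C3 for acute colitis and F1, F3, F5, G2, G3 for 3 cycles. Of 12 epithelial markers of colon listed, 11 were measured, among them Muc2, Cdh17, Krt8 and Epcam, and the mean of the list was 11.48, 11.25, 10.99 and 11.33 in acute colitis and 11.44, 11.29, 11.31, 11.18 and 11 after 3 cycles, against 11.18 to 11.33 in controls, and 0 of the 11 were called. Some arrays stood apart. Krt5, a keratin of stratified squamous epithelium, was 5.71, 5.86, 6.10 and 5.81 in acute colitis and 5.78, 5.83, 5.75, 5.85 and 10.91 after 3 cycles, so that G3 alone carried it, and the mean of the 22 squamous genes was 7.08 in G3 and at most 5.82 in the other 8 arrays. Hoxb13, a homeobox gene of the distal hindgut, was 6.05, 6.57, 8.82 and 8.69 in acute colitis and 6.36, 9.05, 8.88, 9.63 and 9.08 after 3 cycles, low in B2, B3 and F1. The arrays also formed 2 sets by 1 probe set with no gene listed, which was at most 8.14 in 14 arrays and at least 11.09 in the other 15. B2 and B3 were in the first set with all controls, and B4, C3 and all 3-cycles arrays in the second.

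Acute colitis differed from 3 cycles in 106 probe sets that were higher (0.298% of those tested) and 206 that were lower (0.58%), by limma with an adjusted p below 0.05 and more than a 2-fold change, which is referred to as called. Without the fold threshold, 2184 probe sets (6.15%) were higher and 1804 (5.08%) lower. The probe sets called higher stood for 82 genes, counted at the brightest probe set of each gene, and those called lower for 106 genes besides immunoglobulin segments. All 4 acute values lay below all 5 values of 3 cycles in 159 of the 206 called lower (77.2%, against 3.91% of all probe sets). In the other direction, all 4 acute values lay above in 30 of the 106 called higher (28.3%, against 4.65% of all probe sets). The median SD among the acute arrays was 1.13 for the probe sets called higher and 0.52 for those called lower, with 0.19 over all probe sets. In 86 of the 106 called higher, B3 was the highest acute array, and in 81 of them B2 was the lowest. For the 3-cycles arrays the median SD was 0.46, 0.40 and 0.15 in the same order. The number called higher was 198 without B2 and 57 without B3, whereas the number called lower was 253 and 199. A fit of the 9 arrays alone called 28 higher and 162 lower. Without G3, 135 were higher and 218 lower, and the numbers were 99 and 222 once the array set was a term of the fit. The median difference over all probe sets was 0.00.

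**Figure D1:**
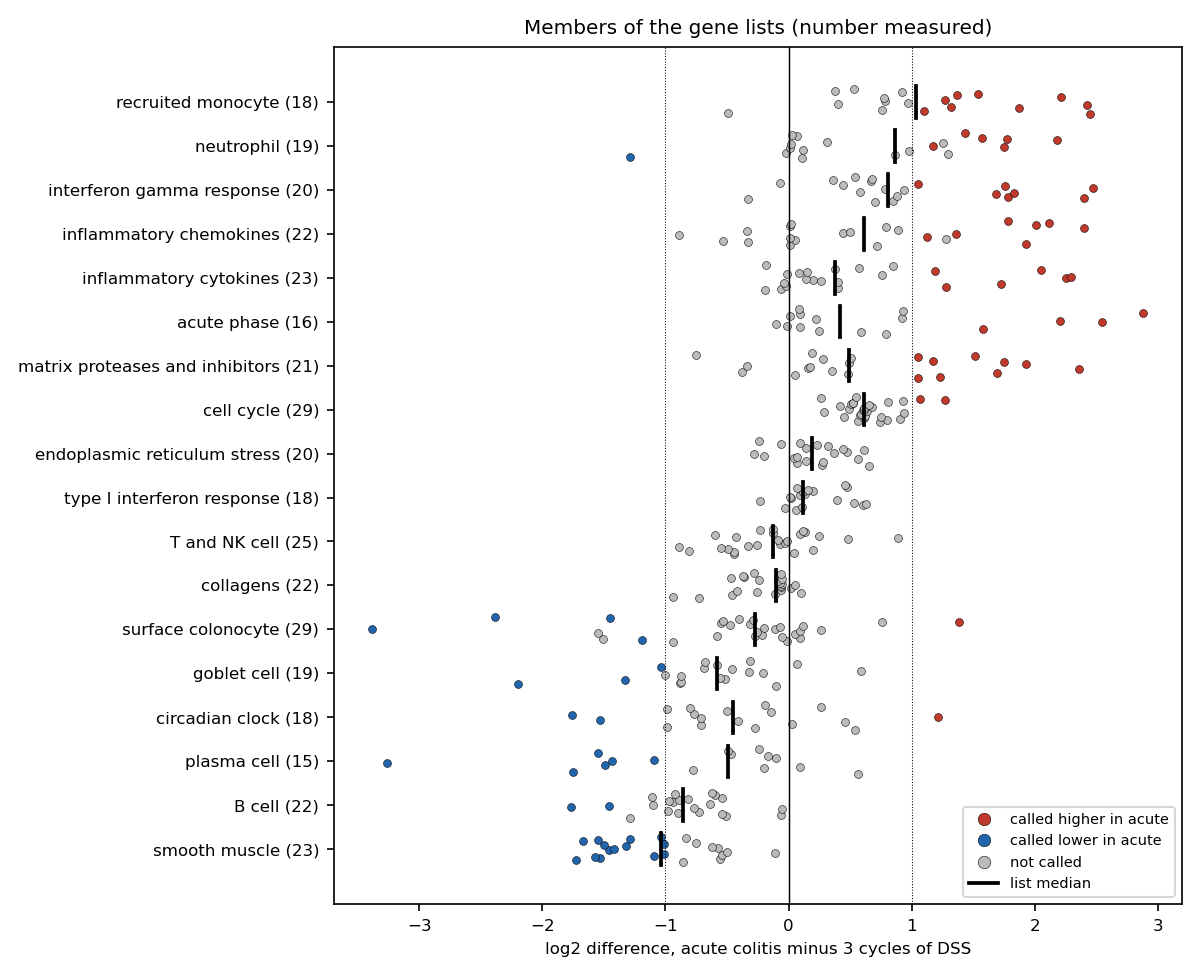
Each point is 1 gene, placed by its log2 difference between acute colitis and 3 cycles of DSS (horizontal axis), in 18 of the gene lists (vertical axis, with the number of genes measured); the black bars are list medians and the dotted lines mark a 2-fold change. The 14 smooth muscle genes called lower lie between -1.73 and -1.01, and the 9 monocyte genes called higher between 1.10 and 2.45.

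Genes of recruited monocytes and neutrophils were higher in acute colitis, unevenly from mouse to mouse. Of 18 measured genes of recruited monocytes, 9 were called higher and 0 lower, with a list median of 1.03 where the median of all genes was -0.00. Of 19 neutrophil genes, 6 were called higher and 1 lower (median 0.86). In whole tissue, a lower level can come from fewer cells of a type or from less RNA per cell, and these cannot be told apart. Retnlg, a resistin-like protein of neutrophils, was 6.52, 9.69, 6.52 and 7.17 in acute colitis and 5.22, 5.09, 5.12, 4.93 and 6.10 after 3 cycles. The groups did not overlap, B3 was far above the rest, and G3 was the highest of the 3-cycles arrays. The difference was 2.18 (SE 0.38, adjusted p = 0.000406). S100a8, a subunit of the neutrophil protein calprotectin, was 5.45, 9.36, 6.40 and 7.10 against 5.02, 4.91, 4.85, 5.06 and 6.67, with B2 below G3 (difference 1.77, SE 0.47, adjusted p = 0.013). Clec4e, a receptor for fungal and mycobacterial glycolipids and for dying cells, was 4.81, 9.88, 6.87 and 7.77 and 4.24, 4.57, 4.31, 4.92 and 6.50 (difference 2.42, SE 0.55, adjusted p = 0.00425). Here, too, B2 lay among the 3-cycles arrays.

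Acod1, which makes itaconate in activated macrophages, was 6.11, 10.93, 8.82 and 8.55 against 5.69, 5.99, 5.80, 6.05 and 7.26, with a control mean of 5.51 ± 0.23 (SD, n = 5 mice), and differed by 2.45 (SE 0.50, adjusted p = 0.00182). The 3-cycles arrays other than G3 were close to controls for this gene and B2 was little higher. Chil3, a chitinase-like protein of monocytes and alternatively activated macrophages, was 4.58, 8.59, 5.19 and 4.91 against 3.94, 3.95, 3.73, 4.01 and 4.12, so that the groups did not overlap although only B3 was far above. Its difference was 1.87 (SE 0.44, adjusted p = 0.00535). The neutrophil gene called lower was Cd177, a surface protein of neutrophils, at 9.63, 8.05, 9.05 and 10.37 in acute colitis and 10.35, 10.20, 10.61, 10.76 and 10.91 after 3 cycles. The difference was -1.29 (SE 0.33, adjusted p = 0.0109), and B3 was the lowest array. In control colon Cd177 was 8.47 ± 0.75 (SD, n = 5), from which acute colitis differed by 0.81 and 3 cycles by 2.10. S100a8 and Retnlg averaged 4.87 in controls and were highest in B3, so Cd177 did not follow these neutrophil genes. Which cells gave its signal was not tested. Cd177 was named after its value was seen. Without B3, the number called higher fell to 4 for monocyte genes and to 1 for neutrophil genes, and the calls of S100a8, S100a9, Mmp8, Chil3 and Cd177 were lost. Without B2 the numbers were 14 and 10, without G3 they were 11 and 10, and in the fit of the 9 arrays alone 0 of each were called. With the array set as a term, 9 monocyte genes and 3 neutrophil genes were called higher, while S100a8 was at 1.50 (adjusted p = 0.0721) and Cd177 at -1.05 (adjusted p = 0.0696). Of 18 genes of resident macrophages, 0 were called, and the differences were split, with 10 below 0 and 8 above (median -0.12). At adjusted p alone, 5 genes of these cells were lower (5.08% of all probe sets) and 2 higher (6.15%). Cx3cr1, the fractalkine receptor of these cells, was 7.02, 6.84, 7.04 and 7.09 against 7.33, 7.65, 7.56, 7.87 and 7.98, without overlap and below the 2-fold threshold (difference -0.68, SE 0.13, adjusted p = 0.000775).

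Cytokine, chemokine and acute phase genes were higher in acute colitis, and the medians after 3 cycles lay between it and control colon. Of 23 inflammatory cytokines 6 were called higher, of 22 inflammatory chemokines 7, and of 16 acute phase genes 4, with 0 called lower in these lists, and medians of 0.38, 0.61 and 0.42. Against controls, the medians of these lists were 0.54, 1.01 and 0.98 in acute colitis and 0.25, 0.58 and 0.55 after 3 cycles. Saa3, a serum amyloid A protein made by epithelium and macrophages, had the largest rise of all called genes, at 8.53, 11.49, 9.01 and 9.64 in acute colitis and 6.94, 5.95, 5.95, 6.41 and 8.71 after 3 cycles. Only G3 reached the acute range. The difference was 2.88 (SE 0.52, adjusted p = 0.00055), which is 7.34-fold, and Saa3 was 5.24 ± 0.05 (SD, n = 5) in controls. Lcn2, a siderophore-binding protein that starves bacteria of iron, was 8.97, 11.78, 9.52 and 9.64 and 7.31, 6.38, 6.41, 7.53 and 9.58 (difference 2.54, SE 0.51, adjusted p = 0.00149). As for Saa3, the 3-cycles arrays except G3 lay below every acute array. Lrg1 and Hp, a leucine-rich glycoprotein and haptoglobin, were the remaining acute phase genes called higher, by 2.20 and 1.58.

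Il1b, the secreted interleukin 1 of myeloid cells, was 6.81, 10.93, 8.73 and 8.76 in acute colitis and 5.99, 5.90, 6.03, 6.37 and 8.29 after 3 cycles, against 5.18 ± 0.09 in controls (SD, n = 5). B2 lay between G3 and the other 3-cycles arrays. The difference was 2.29 (SE 0.51, adjusted p = 0.00379). Il6 was 3.74, 8.91, 5.75 and 4.91 and 3.66, 3.86, 3.54, 3.66 and 4.15, so that B2 lay among the 3-cycles arrays, near the control mean of 3.55 ± 0.02 (SD, n = 5). Its difference was 2.05 (SE 0.51, adjusted p = 0.00891). Il11, a stromal cytokine of the interleukin 6 family, was 5.91, 8.81, 7.87 and 6.52 against 5.24, 5.37, 5.32, 5.62 and 6.24 (difference 1.72, SE 0.34, adjusted p = 0.00125), with only B2 below G3. Il1a, Il33 and Ifng were also called higher, by 2.25, 1.19 and 1.28. Ifng, the interferon of T and NK cells, named after its value was seen, was 5.35, 9.15, 6.52 and 5.58 against 5.11, 5.28, 5.52, 5.43 and 5.51, high in B3 above all, and its call was lost without B3, B4 or any one of the 5 arrays of 3 cycles, and with the array set as a term (adjusted p = 0.166).

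Among chemokines, Cxcl10, a ligand of CXCR3 on activated T cells, was 7.03, 11.45, 9.95 and 8.72 and 6.24, 6.48, 6.44, 6.76 and 8.49 (difference 2.40, SE 0.53, adjusted p = 0.00348). B2 was below G3 and above the other 3-cycles arrays. The neutrophil attractants Cxcl5 and Cxcl2 were at 5.37, 9.46, 8.27 and 7.80 and at 4.66, 9.55, 7.39 and 6.03 in acute colitis. After 3 cycles Cxcl5 was 5.09, 4.73, 5.13, 5.40 and 7.76 and Cxcl2 4.21, 4.45, 4.36, 4.61 and 6.84, high in G3 alone. Their differences were 2.11 (SE 0.58, adjusted p = 0.018) and 2.01 (SE 0.60, adjusted p = 0.0272). Ccl2, which calls monocytes through CCR2, differed by 1.93 (SE 0.43, adjusted p = 0.00333), and Ccl5, Ccl7 and Cxcl9 were the remaining chemokines called. At adjusted p alone, 10 chemokines were higher (6.15% of all probe sets) and 3 lower (5.08%). The largest of these falls was that of Ccl6, a chemokine of myeloid cells named after its value was seen, at -0.89 (adjusted p = 0.00222). The calls of Il1a, Il33, Cxcl5 and Cxcl2 were lost without B3, and those of Cxcl5 and Cxcl2 also without B4 or F3 (Cxcl2 also without F1, F5 or G2, and at adjusted p = 0.0643 with the array set as a term). Without B3, 3 cytokines, 2 chemokines and 4 acute phase genes were called higher, and in a fit of the 2 groups alone 0 of each. The number of chemokines was 4 without B4, F1, F3 or F5, and that of acute phase genes 7 without B2.

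**Figure D2:**
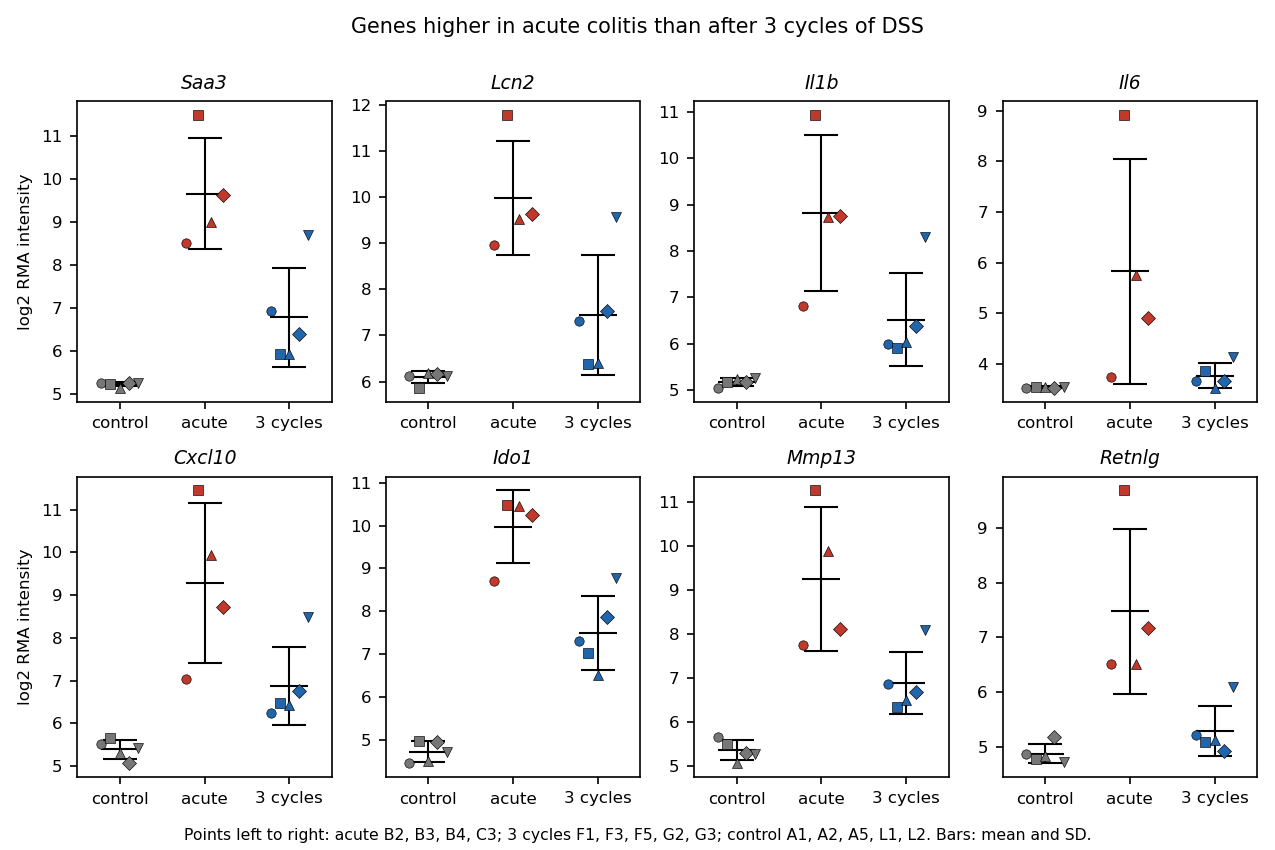
Log2 RMA intensity (vertical axis) of 8 genes in control, acute colitis and 3-cycles arrays, 1 point per mouse with mean and SD. B3 is the highest and B2 the lowest acute array for Saa3, Lcn2, Il1b, Il6, Cxcl10 and Mmp13, and G3 is the highest 3-cycles array in all 8 panels.

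Interferon gamma response genes were higher in acute colitis, and type I interferon response genes differed little, with none called. Of 20 measured interferon gamma response genes, 7 were called higher and 0 lower (median 0.81), with Cxcl9 and Cxcl10 counted among the chemokines too, and of 18 type I interferon response genes 0 were called (median 0.12, 1 higher at adjusted p alone). A positive difference was seen in 18 of the 20 and in 16 of the 18. Against controls, the median of the interferon gamma list was 2.03 in acute colitis and 1.24 after 3 cycles. That of the type I list was 1.03 and 0.70. The difference between these lists was not tested. For the type I list, the median between acute colitis and 3 cycles was 0.01 without B3 and 0.01 without F5. Over all probe sets, 6.15% were higher at adjusted p alone. Ido1, which degrades tryptophan, was 8.70, 10.48, 10.45 and 10.24 in acute colitis and 7.31, 7.03, 6.52, 7.86 and 8.77 after 3 cycles. Only B2 fell into the range of 3 cycles, just below G3. The difference was 2.47 (SE 0.50, adjusted p = 0.00176), and controls were at 4.72 ± 0.24 (SD, n = 5), far below both groups. Gbp5, a guanylate-binding GTPase of cell-autonomous defence, was 6.10, 10.26, 8.37 and 7.60 against 5.55, 6.42, 5.86, 6.09 and 7.33 (difference 1.83, SE 0.45, adjusted p = 0.00732), with B2 within the range of 3 cycles. The remaining members called were Gbp4, Iigp1 and Irgm1, GTPases of the same kind of defence, which have close paralogs. Without B3, 3 of the 20 were called, without F1 4 and without B2 11, with 3 in the arrays above 10 alone and 1 in the fit of the 9 arrays alone. Cxcl9, a CXCR3 ligand like Cxcl10, was 8.95, 12.43, 11.24 and 10.60 against 8.36, 8.45, 8.16, 9.60 and 10.58 (difference 1.78, SE 0.52, adjusted p = 0.0255), and this call was lost without B3, B4, F1, F3 or F5. Of the type I list, Ifit2 was 6.39, 8.26, 7.64 and 7.13 against 6.63, 6.85, 5.94, 6.83 and 7.37, overlapping widely (difference 0.63, SE 0.32, adjusted p = 0.232).

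MHC class II genes, which present antigen to CD4 T cells, had differences below 0 in 8 of 8 measured members, 1 of them called. H2-Ob, a chain of the class II modulator H2-O found mainly in B cells, was 5.99, 7.26, 7.16 and 6.21 against 7.10, 8.38, 7.53, 8.94 and 8.12 (difference -1.36, SE 0.39, adjusted p = 0.0238). B2 and C3 lay below all 3-cycles arrays. Its call was lost without B2, C3, F3 or G2 and with the array set as a term (adjusted p = 0.0536). H2-Aa, a chain of the presenting molecule itself, was 9.05, 10.50, 10.34 and 10.05 against 9.65, 10.54, 9.97, 10.93 and 11.14, overlapping, with a difference of -0.46 (SE 0.33, adjusted p = 0.449). Against controls, H2-Aa differed by 1.41 in acute colitis and 1.87 after 3 cycles.

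Several proteases that cut the extracellular matrix were higher in acute colitis. Of 21 measured proteases and related genes, 9 were called higher, by 1.05 to 2.36, and 0 lower (median 0.49). The 9 included Timp1, an inhibitor of these proteases, at 1.51 and Plaur, the urokinase receptor, at 1.05. Another inhibitor, Timp2, was lower at adjusted p alone, at -0.75 (adjusted p = 5.42e-05), as was Mmp11, at -0.38 (adjusted p = 0.00251), both without overlap. Timp1, Timp2 and Mmp11 were named after their values were seen. Mmp8 and Mmp9 among them were counted with the neutrophil genes too. Mmp13, a collagenase, was 7.75, 11.27, 9.90 and 8.11 in acute colitis and 6.86, 6.34, 6.50, 6.68 and 8.10 after 3 cycles, where only G3 reached the acute range, above B2 and level with C3. The difference was 2.36 (SE 0.50, adjusted p = 0.00245). The stromelysins Mmp3 and Mmp10 lie beside Mmp13 in a cluster of protease genes and differed by 1.93 (SE 0.52, adjusted p = 0.0158) and 1.69 (SE 0.41, adjusted p = 0.0069). Mmp3 was 6.51, 10.88, 8.87 and 7.82 against 6.35, 6.18, 5.96, 6.63 and 7.82, with B2 within the 3-cycles range and C3 level with G3. Adamts4 and Adamts1, which cleave large proteoglycans, did not overlap between groups. Adamts4 was 6.70, 8.05, 7.74 and 7.11 against 5.96, 5.80, 6.40, 6.07 and 6.64 (difference 1.23, SE 0.24, adjusted p = 0.00103) and Adamts1 6.65, 8.22, 7.78 and 6.82 against 6.32, 6.40, 6.08, 6.18 and 6.59 (difference 1.05, SE 0.20, adjusted p = 0.000852). Cemip, a hyaluronan-degrading protein named after its value was seen, was 5.96, 9.68, 8.12 and 7.10 against 5.13, 5.49, 5.55, 5.45 and 6.37 and differed by 2.12 (SE 0.42, adjusted p = 0.00127). B3 was again the highest array and B2 the lowest of the acute group, below G3. Without B3, 3 of the 21 were called, and Mmp3, Mmp8 and Adamts1 were among those lost. In the fit of the 9 arrays alone 1 was called, and with the array set as a term Mmp3 was at 1.78 (adjusted p = 0.0598).

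The bases before the transcription start of 6 chemokine, interferon response and protease genes called higher are shown, from RefSeq (GRCm38.p6). These 6 were picked by hand, and each holds at least 1 match. Capitals mark matches, on either strand, to 4 motifs, which are the NF-kB motif, TTCNNNGAA of STAT factors, the interferon-stimulated element (GAAA, any 2 bases, GAAA) and TGANTCA of AP-1. Each run holds the 250 bases before the start, 5′ to 3′ in the direction of the gene.
Cxcl10 (chr5:92348890-92349139, minus strand): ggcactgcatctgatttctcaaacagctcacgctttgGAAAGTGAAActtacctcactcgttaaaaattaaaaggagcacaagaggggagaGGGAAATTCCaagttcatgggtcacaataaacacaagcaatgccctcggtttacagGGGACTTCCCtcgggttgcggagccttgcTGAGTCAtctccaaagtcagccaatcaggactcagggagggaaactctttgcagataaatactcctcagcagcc
Cxcl2 (chr5:90903649-90903898, plus strand): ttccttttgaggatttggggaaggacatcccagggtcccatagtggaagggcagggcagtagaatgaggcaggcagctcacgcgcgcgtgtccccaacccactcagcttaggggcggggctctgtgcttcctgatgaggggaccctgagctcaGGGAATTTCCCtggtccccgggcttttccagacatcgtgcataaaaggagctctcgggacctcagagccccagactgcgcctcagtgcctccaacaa
Gbp5 (chr3:142496684-142496933, plus strand): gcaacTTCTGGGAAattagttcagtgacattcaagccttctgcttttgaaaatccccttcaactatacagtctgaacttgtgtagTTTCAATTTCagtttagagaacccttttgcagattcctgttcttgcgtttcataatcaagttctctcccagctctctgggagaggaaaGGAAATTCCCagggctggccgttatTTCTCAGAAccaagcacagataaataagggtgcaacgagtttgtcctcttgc
Mmp13 (chr9:7272264-7272513, plus strand): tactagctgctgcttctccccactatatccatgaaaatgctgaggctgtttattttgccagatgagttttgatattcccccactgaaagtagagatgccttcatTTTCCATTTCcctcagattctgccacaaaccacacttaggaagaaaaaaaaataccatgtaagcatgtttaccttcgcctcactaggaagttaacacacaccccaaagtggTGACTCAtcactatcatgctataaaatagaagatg
Mmp3 (chr9:7445572-7445821, plus strand): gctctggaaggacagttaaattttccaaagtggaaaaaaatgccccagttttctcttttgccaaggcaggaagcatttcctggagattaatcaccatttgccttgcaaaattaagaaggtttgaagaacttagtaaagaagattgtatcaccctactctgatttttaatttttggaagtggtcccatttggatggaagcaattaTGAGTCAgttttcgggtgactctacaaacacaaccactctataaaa
Mmp10 (chr9:7502092-7502341, plus strand): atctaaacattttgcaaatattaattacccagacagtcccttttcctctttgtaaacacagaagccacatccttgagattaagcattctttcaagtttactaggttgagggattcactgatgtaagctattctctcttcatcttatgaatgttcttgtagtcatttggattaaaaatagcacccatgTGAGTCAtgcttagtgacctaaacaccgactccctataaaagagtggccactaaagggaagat
The window of Cxcl10 held an interferon-stimulated element that begins 213 bases before the start, NF-kB matches that begin 159 and 103 bases before it, and an AP-1 match at 74. In Cxcl2 a pair of overlapping NF-kB matches began 97 and 96 bases before the start. Gbp5 held STAT matches at 245 and 52, an interferon-stimulated element at 165 and an NF-kB match at 77. Each of the 3 protease windows held 1 AP-1 match close to the start, at 35 bases in Mmp13, 46 in Mmp3 and 63 in Mmp10, and that of Mmp13 also held an interferon-stimulated element at 146. Over the windows of 27025 genes, 4.46% held the NF-kB motif, 8.13% the STAT motif, 3.46% the interferon-stimulated element and 7.82% the AP-1 motif. Of 83 genes with a probe set called higher, 64 had a window. Of these, 9, 9, 7 and 11 held the 4 motifs in that order (14.1%, 14.1%, 10.9% and 17.2%). Of 106 called lower, 85 had a window, and 9, 8, 3 and 5 held them (10.6%, 9.41%, 3.53% and 5.88%). These shares were not compared by a test. The matches are a description of the letters and do not show binding.

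Genes of dividing cells were higher in acute colitis, mostly by less than 2-fold. All 29 measured cell cycle genes had a positive difference, 23 of them at an adjusted p under 0.05, and the list median was 0.61, but only 2 passed the 2-fold threshold. In 14 of the 29, every acute array lay above every 3-cycles array. Over all probe sets this held for 4.65%, and 6.15% were higher at adjusted p alone. Rrm2, a subunit of ribonucleotide reductase that makes DNA precursors, was 8.21, 8.83, 9.40 and 8.81 in acute colitis and 7.76, 7.01, 7.82, 7.45 and 7.67 after 3 cycles, without overlap (difference 1.27, SE 0.17, adjusted p = 2.77e-05). Here B4, not B3, was the highest acute array. Controls were at 7.54 ± 0.19 (SD, n = 5), and the 3-cycles mean was 7.54 ± 0.33 (SD, n = 5). Top2a, a topoisomerase of dividing cells, was 9.05, 9.21, 9.55 and 9.37 against 8.55, 7.69, 8.27, 8.38 and 8.24, again without overlap (difference 1.07, SE 0.16, adjusted p = 5.23e-05), and its call was lost without B4 or F3. A second Top2a probe set differed by -0.05. Hells, a chromatin remodeller of dividing cells, and Ctps, which makes CTP, likewise did not overlap and differed by 1.12 and 1.07, the call of Ctps being lost without B3 or B4. With the array set as a term, 6 cell cycle genes were called higher, without B2 4, and without B4 or F3 1.

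Ereg, an epidermal growth factor receptor ligand made in wounded mucosa, was 7.26, 9.94, 8.77 and 7.67 in acute colitis and 6.55, 6.06, 6.60, 6.15 and 6.90 after 3 cycles. The groups did not overlap, B3 was the highest and B2 the lowest of the acute arrays, and the difference was 1.96 (SE 0.31, adjusted p = 0.000135). Of 21 genes of regenerating epithelium, Ereg, Il33 and Plaur were called, all higher, and without B3 only Ereg remained. Tfrc, the transferrin receptor that brings iron into cells, was 10.05, 9.66, 9.68 and 10.11 against 8.45, 8.15, 8.91, 9.0 and 8.03 (difference 1.37, SE 0.24, adjusted p = 0.000464), without overlap and with B2 and C3 the highest. Ak4, an adenylate kinase of mitochondria, was 9.63, 10.52, 10.16 and 10.54 against 8.85, 8.28, 8.41, 8.21 and 7.91 (difference 1.88, SE 0.30, adjusted p = 0.000154), and a second probe set of this gene differed by 1.35. Gda, the guanine deaminase, was 8.83, 9.73, 9.25 and 9.46 against 7.95, 8.15, 7.80, 8.14 and 8.34 (difference 1.24, SE 0.19, adjusted p = 9.39e-05), and Trim15 and the chaperone Hsph1 were called without overlap at 1.39 and 1.14, the latter at 0.91 (adjusted p = 0.087) with the array set as a term. Chaperones and other genes of endoplasmic reticulum stress were higher at adjusted p alone in 9 of 20 (6.15% of all probe sets) and called in 0. Hspa5, the main chaperone of that compartment, was 11.07, 11.23, 11.27 and 11.26 against 10.73, 10.49, 10.95, 10.69 and 10.84, without overlap and with a difference of 0.47 (SE 0.10, adjusted p = 0.00336). Ptgs2, the inducible prostaglandin synthase, and Socs3, a brake on interleukin 6 signalling, were the 2 of 18 NF-kB feedback and prostaglandin genes called, at 1.44 and 1.33. Ptgs2 lost its call without B3 or G2 and was at 1.37 (adjusted p = 0.063) with the array set as a term, and a second Socs3 probe set differed by 0.19. Nos2, the inducible nitric oxide synthase, was the 1 of 20 antimicrobial genes called higher, at 7.58, 10.74, 10.20 and 9.68 against 6.93, 7.81, 7.19, 8.10 and 9.26 (difference 1.69, SE 0.47, adjusted p = 0.0178), and lost its call without B3, B4, F1 or F5. Of 18 genes of hypoxia and glycolysis, 5 were higher at adjusted p alone and 0 were called.

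Smooth muscle genes were the list with most members called. Of 23 measured, 14 were called lower and 0 higher, 21 were lower at an adjusted p under 0.05, and in 19 of them all acute arrays lay below all 3-cycles arrays (list median -1.04). Over all probe sets these shares were 0.58% called lower, 5.08% lower at adjusted p alone and 3.91% with all acute arrays below. Actg2, the enteric gamma actin of visceral muscle, was 10.11, 9.42, 8.96 and 9.0 in acute colitis and 11.35, 11.33, 11.33, 10.78 and 10.72 after 3 cycles. The groups did not overlap, and controls, at 11.29 ± 0.21 (SD, n = 5), lay with the 3-cycles arrays. The difference was -1.73 (SE 0.17, adjusted p = 4.02e-07), which is 3.31-fold lower. Des, desmin of the muscle intermediate filaments, was 10.85, 10.20, 10.03 and 9.24 and 11.91, 11.95, 11.86, 11.23 and 11.30 (difference -1.57, SE 0.20, adjusted p = 1.4e-05). Synm, its partner synemin, was 7.85, 7.30, 7.20 and 6.96 and 9.31, 9.32, 9.26, 8.70 and 8.41 (difference -1.67, SE 0.18, adjusted p = 6.76e-07). In all 3 genes B2 was the highest of the acute arrays, and G2 and G3 were the lowest of the 3-cycles arrays. Synpo2, an actin-bundling protein, differed by -1.55 (SE 0.21, adjusted p = 2.84e-05).

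The contractile genes Myh11, Myl9, Cnn1 and Tagln, named after their values were seen, differed by -1.46, -1.42, -1.53 and -1.29, and in none did the groups overlap. Against controls, the smooth muscle list had a median difference of -1.27 in acute colitis and of -0.19 after 3 cycles. The mean of the list was 8.59, 8.23, 8.02 and 7.69 in the acute arrays, 9.46, 9.39, 9.34, 8.91 and 8.89 in the 3-cycles arrays and 9.23 to 9.62 in controls. Of the 23 genes, 9 were called lower without C3, 10 without F1 or F3, and 12 to 14 without any other single array. The number was 14 with the array set as a term and 13 in the fit of the 9 arrays alone. Of 12 skeletal muscle markers and 22 genes of enteric neurons and glia, which lie among the muscle layers, 0 were called. Mir145a, the gene of a microRNA typical of smooth muscle, was 7.58, 6.70, 5.52 and 5.91 against 8.38, 8.93, 8.44, 7.82 and 7.61, without overlap (difference -1.81, SE 0.32, adjusted p = 0.000461). The probe set reads the primary transcript or precursor, not the mature microRNA.

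Of 296 microRNA genes measured, 2 were called lower and 0 higher, a share near the 0.58% of all probe sets called lower. Besides Mir145a this was Mir200b, which was named after its value was seen. It was 6.66, 5.51, 5.02 and 4.97 and 6.72, 7.84, 7.76, 6.90 and 6.39 (difference -1.58, SE 0.37, adjusted p = 0.00509). This is a microRNA of epithelium. B3, B4 and C3 lay below all 3-cycles arrays, and B2 lay among them. Its mature products are shown because the seed decides which messages a microRNA can pair with. The sequences are from RefSeq (GRCm38.p6, chromosome 4, minus strand), with the seed, bases 2 to 8, in capitals.
mmu-miR-200b-3p: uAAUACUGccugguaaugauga
mmu-miR-200b-5p: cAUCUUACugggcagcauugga

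Transcripts of antibody-producing cells had the largest differences of all probe sets. Of 15 plasma cell genes, 6 were called lower in acute colitis and 0 higher, with 8 of 15 entirely below the 3-cycles arrays. Over all probe sets 0.58% were called lower and 3.91% lay entirely below. Jchain, which joins IgA and IgM into polymers for transport into the lumen, was 7.18, 8.60, 7.44 and 7.87 in acute colitis and 10.73, 10.90, 10.99, 11.41 and 11.15 after 3 cycles. The groups were far apart, and controls were between them at 9.25 ± 0.40 (SD, n = 5). The difference was -3.26 (SE 0.24, adjusted p = 3.18e-09), which is 9.61-fold lower. Derl3, a protein of endoplasmic reticulum degradation in secretory cells, was 6.07, 6.47, 6.69 and 6.55 against 7.95, 7.85, 8.09, 8.61 and 8.46 (difference -1.75, SE 0.18, adjusted p = 6.38e-07). Tnfrsf17, the survival receptor BCMA, differed by -1.55 (SE 0.13, adjusted p = 6.67e-08), Irf4, a transcription factor of plasma cells, by -1.49 (SE 0.15, adjusted p = 6.38e-07), and Mzb1 and Pou2af1, named after their values were seen, by -1.43 and -1.09. In none of the 6 did the groups overlap. For Derl3, Irf4 and Mzb1 acute colitis differed from controls by -0.06, -0.14 and -0.16, and 3 cycles by 1.69, 1.34 and 1.27.

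Of 15 probe sets named for 1 immunoglobulin chain or segment, 14 were called lower (median of the 15, -2.73), against 0.58% of all probe sets, and in 13 the groups did not overlap. The brightest Ighm probe set, the heavy chain of IgM, was 4.65, 6.77, 5.50 and 5.79 in acute colitis and 9.89, 10.42, 10.08, 12.13 and 10.80 after 3 cycles (difference -4.99, SE 0.47, adjusted p = 2.3e-07). That of Igha, the heavy chain of IgA, was 6.92, 9.57, 7.54 and 8.06 against 11.48, 10.67, 11.87, 11.65 and 11.08 (difference -3.32, SE 0.40, adjusted p = 4.12e-06). G2 was the highest array for Ighm, and B3 the highest acute array for both; both genes were named after their values were seen. Immunoglobulin segments resemble each other in sequence, and the probe sets cannot be assigned to single segments with certainty. A probe set annotated to the kinase-like gene Adck1 had the largest fall among genes not annotated as such segments. It was 3.35, 4.20, 3.78 and 3.10 and 7.80, 6.59, 6.79, 8.63 and 7.78 (difference -3.91, SE 0.44, adjusted p = 1.53e-06), while a second Adck1 probe set differed by 0.09. Which of these probe sets stands for Adck1 is uncertain. The first averaged 4.77 in controls and 8.48, 7.47 and 7.52 after 1, 2 and 3 cycles. Like Ighm, it was highest in G2 among the 9 arrays. Whether it reads an immunoglobulin transcript was not tested. The number of plasma cell genes called was 6 without B2, B3 or G3 and with the array set as a term, and Pou2af1 lost its call without G2.

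Few B cell genes were called, with wide spread in both groups. All 22 measured had a negative difference (median -0.86), 4 of them at an adjusted p under 0.05 (5.08% of all probe sets) and 2 called (0.58%). Without F1, 8 were called lower, without B3 4, without B2 1, and in the fit of the 9 arrays alone 0. Cd79a, a signalling chain of the B cell receptor, was 4.36, 5.62, 6.48 and 4.64 against 6.56, 6.75, 6.79, 8.02 and 7.08, just without overlap between B4 and F1 (difference -1.77, SE 0.45, adjusted p = 0.00963). Its partner Cd79b was 6.29, 7.54, 7.88 and 6.88 against 7.68, 8.71, 8.24, 9.57 and 8.86, with B4 above F1 (difference -1.46, SE 0.38, adjusted p = 0.0117), and lost its call without B2. Ms4a1, the CD20 antigen, was 4.86, 6.28, 5.74 and 4.90 against 5.40, 6.89, 6.03, 7.90 and 6.57 and was not called (difference -1.11, SE 0.49, adjusted p = 0.16). G2 was the highest array for all 3 genes. Glycam1, an L-selectin ligand of vessels through which lymphocytes enter lymphoid tissue, was the 1 of 17 lymphoid follicle genes called, at 4.89, 4.91, 5.19 and 5.15 and 6.16, 6.09, 6.15, 8.25 and 6.91 (difference -1.68, SE 0.44, adjusted p = 0.0126), without overlap and highest in G2, and 3 of this list were called without F1. Of 25 T and NK cell genes 0 were called, with a median of -0.13. Cd4 was 5.99, 6.50, 6.50 and 7.01 against 7.00, 7.38, 7.45, 7.78 and 7.38 (difference -0.89, SE 0.18, adjusted p = 0.00186) and the cytotoxic granule gene Gzmb 5.38, 7.48, 5.82 and 5.67 against 5.09, 5.29, 4.84, 5.19 and 5.56 (difference 0.89, SE 0.26, adjusted p = 0.022), neither of them past the 2-fold threshold. Cd4 overlapped only between C3 and F1, and Gzmb only between B2 and G3.

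**Figure D3:**
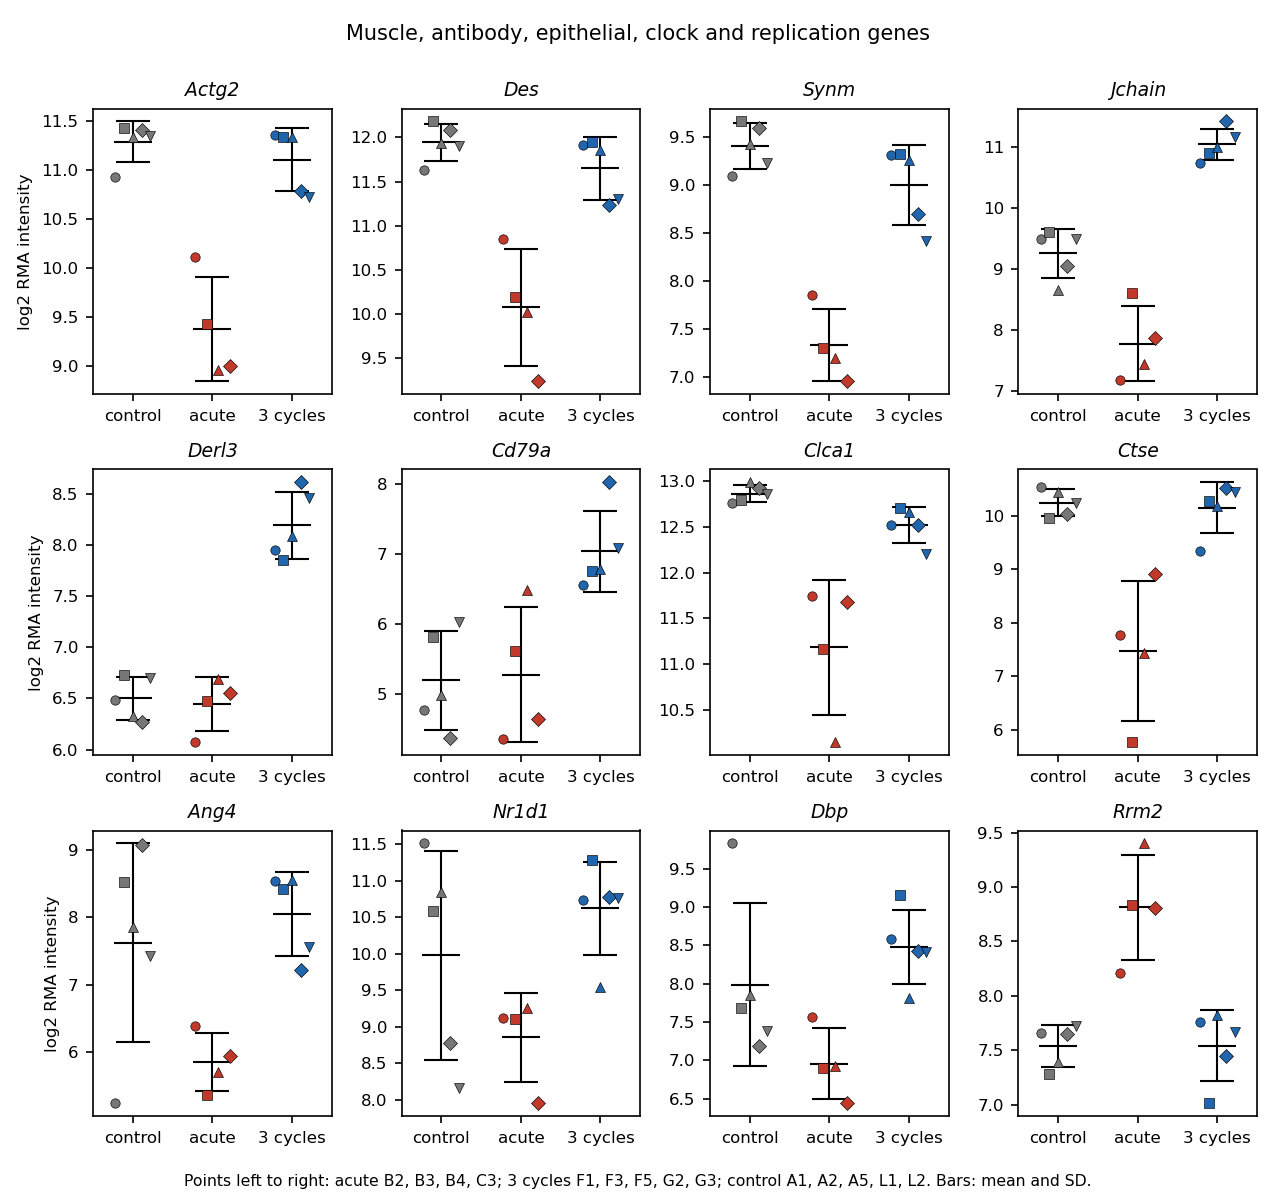
Log2 RMA intensity (vertical axis) of 12 genes in control, acute colitis and 3-cycles arrays, 1 point per mouse with mean and SD. Of the 3 groups drawn, Actg2, Des and Synm are low in acute colitis and Derl3 is high after 3 cycles, and no acute array overlaps a 3-cycles array in any of the 12 panels.

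Some genes of differentiated epithelium were lower in acute colitis, with large differences between mice of a group. Of 29 surface colonocyte genes 4 were called lower and 1 higher (median -0.27), of 19 goblet cell genes 3 lower (median -0.58, 8 at adjusted p alone), and of 30 genes of xenobiotic metabolism 2 lower. Over all probe sets 0.58% were called lower and 5.08% were lower at adjusted p alone. Without F3, 2 colonocyte genes were called lower. Of goblet cell genes 7 were called lower without B2 and 5 without C3. Of genes of xenobiotic metabolism 5 were called lower without B2, 4 without G3, 4 with the array set as a term and 9 in the arrays above 10 alone. Ctse, the aspartic protease cathepsin E, was 7.78, 5.76, 7.44 and 8.91 in acute colitis and 9.34, 10.28, 10.19, 10.52 and 10.44 after 3 cycles, without overlap, and 10.25 ± 0.25 (SD, n = 5) in controls. The difference was -2.68 (SE 0.37, adjusted p = 2.88e-05). Clca1, a protease secreted with the mucus of goblet cells, was 11.74, 11.17, 10.15 and 11.68 against 12.52, 12.70, 12.66, 12.52 and 12.20, again without overlap (difference -1.33, SE 0.19, adjusted p = 4.44e-05), lowest in B4, without which the call was lost. Ang4, an antimicrobial ribonuclease, was 6.39, 5.37, 5.70 and 5.94 against 8.53, 8.41, 8.55, 7.22 and 7.55 (difference -2.20, SE 0.54, adjusted p = 0.00797), without overlap. Control mice were themselves spread for Ang4, at 7.62 ± 1.47. St3gal6, a sialyltransferase, was the third goblet cell gene called, at -1.04, and was lost without B3, F3 or G2. Muc2, the gel-forming mucin, was 13.39, 12.98, 12.40 and 13.18 against 13.41, 13.37, 13.37, 13.15 and 13.24 and was not called (difference -0.32, SE 0.14, adjusted p = 0.167).

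Mptx1, a mucosal pentraxin, was 4.22, 4.36, 6.30 and 5.07 in acute colitis, 5.68, 9.22, 9.85, 9.06 and 8.02 after 3 cycles and 11.44 ± 0.28 (SD, n = 5) in controls. F1 fell into the acute range, and both groups were below controls, with differences of -6.45 and -3.07. The difference between the groups was -3.38 (SE 0.73, adjusted p = 0.00283). Tgm3, a transglutaminase, was 7.04, 6.45, 9.44 and 8.76 against 7.59, 11.43, 10.82, 11.26 and 10.40 (difference -2.38, SE 0.64, adjusted p = 0.0154). Tgm3 was lowest in B2, B3 and F1, the arrays in which Hoxb13 was low. Its call was lost without B2, B3 or F3, and with the array set as a term it was -1.83 (adjusted p = 0.103). Trpv6, an epithelial calcium channel named after its value was seen, was likewise lowest in B2, B3 and F1, at 5.17, 5.20, 5.83 and 5.90 and 5.11, 6.93, 8.04, 8.12 and 7.97 (difference -1.71, SE 0.51, adjusted p = 0.027), and its call was lost without B2, B3, F5, G2 or G3 and with the array set as a term (adjusted p = 0.11). Of 9 Hox genes listed for position along the colon 0 were called, and the part of the position along the colon in these values was not tested. Sycn and Aqp8 were the remaining colonocyte genes called lower.

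Aqp8, a water channel of surface cells, was 9.35, 9.94, 8.06 and 8.50 against 10.52, 10.64, 10.21, 10.34 and 9.03, with G3 in the acute range (difference -1.19, SE 0.37, adjusted p = 0.0374), and its call was lost without any one of B4, C3, F1, F3, F5 or G2. Aqp8 was named after its value was seen, as was Slc51b. Slc51b, a subunit of a bile acid exporter, was the colonocyte gene called higher, at 9.78, 10.13, 8.59 and 9.32 against 8.64, 8.06, 7.83, 8.02 and 7.81, with only B4 overlapping (difference 1.38, SE 0.28, adjusted p = 0.00176). Slc10a2, the bile acid importer of ileal enterocytes, named after its value was seen, was 7.61, 7.90, 5.88 and 5.90 against 5.32, 5.21, 6.32, 4.75 and 4.86 (difference 1.53, SE 0.50, adjusted p = 0.0486), highest in B2 and B3. Its call was lost without B2, B3 or any of 4 other arrays, and with the array set as a term (adjusted p = 0.254). Cyp2c68, a cytochrome P450, was 4.91, 3.64, 4.05 and 4.58 against 5.51, 6.16, 6.27, 6.06 and 5.54 without overlap and 7.87 ± 0.68 (SD, n = 5) in controls (difference -1.61, SE 0.34, adjusted p = 0.00234). Cyp2c68 has close paralogs, and Cyp2c55, one of its family, was 11.34, 11.60, 4.26 and 7.63 against 11.57, 10.83, 11.12, 8.98 and 8.78, low in B4 and not called. Adh1, an alcohol dehydrogenase, was 11.59, 9.39, 11.40 and 11.84 against 11.44, 12.29, 12.20, 12.60 and 12.32, low in B3 (difference -1.12, SE 0.31, adjusted p = 0.0178), and its call was lost without B3 and with the array set as a term (adjusted p = 0.117). Of 18 genes of butyrate oxidation and ketogenesis, 17 tight junction genes, 17 enteroendocrine genes and 19 crypt stem cell and Wnt target genes, 0 were called. Clps, the cofactor of pancreatic lipase, was called lower at 7.84, 6.71, 6.78 and 7.03 and 8.75, 8.67, 8.93, 8.60 and 8.33 (difference -1.57, SE 0.22, adjusted p = 3.14e-05), without overlap, and controls were at 9.14 ± 0.38 (SD, n = 5). The other 9 exocrine pancreas markers measured were not called.

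Eno3, the enolase of muscle, and Ceacam10, a member of the carcinoembryonic antigen family, were also among the largest falls without overlap. Eno3 was 6.92, 6.26, 7.37 and 6.95 against 8.03, 9.32, 8.64, 9.48 and 8.50 (difference -1.92, SE 0.34, adjusted p = 0.000481). Ceacam10 was 9.05, 7.27, 7.56 and 8.58 against 9.49, 9.76, 9.84, 9.95 and 9.95 (difference -1.69, SE 0.27, adjusted p = 0.000185), and B2 and C3 were the nearest acute arrays.

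Some matrix and stromal genes were lower in acute colitis, nearly all of them by less than 2-fold. Of 35 matrix genes other than collagens, 16 were lower at an adjusted p under 0.05 and 2 were called. Over all probe sets, 5.08% were lower at that level, 6.15% higher and 0.58% called lower, and in 3.91% all acute arrays lay below. Fn1, fibronectin, was 9.97, 10.78, 10.46 and 10.36 in acute colitis and 11.34, 11.40, 11.41, 11.26 and 11.41 after 3 cycles, without overlap (difference -0.97, SE 0.11, adjusted p = 2.44e-06). Relative to controls, at 10.98 ± 0.08 (SD, n = 5), acute colitis was below and 3 cycles above. Ogn, a small proteoglycan, and Mfap4, a protein of elastic fibres, were called at -1.48 (SE 0.24, adjusted p = 0.000186) and -1.41 (SE 0.15, adjusted p = 6.38e-07). Mfap4 was 6.80, 6.03, 6.56 and 6.38 against 7.99, 7.83, 7.77, 7.75 and 7.89, with nearly equal values within the 3-cycles group. Of 22 collagens 7 were lower at adjusted p alone and 0 were called, and in the same number all acute arrays lay below. Col14a1, a collagen on fibril surfaces, was 7.07, 7.02, 7.05 and 6.53 against 8.07, 7.89, 7.89, 7.71 and 7.72 (difference -0.94, SE 0.16, adjusted p = 0.000317), without overlap and lowest in C3. Of 26 stromal niche genes 8 were lower at adjusted p alone, and Wnt2b, a Wnt ligand for crypt cells, was 6.32, 6.81, 6.74 and 6.55 against 7.30, 7.70, 7.72, 7.41 and 7.26 (difference -0.87, SE 0.14, adjusted p = 0.000171), without overlap. Of 14 mast cell genes and 20 immediate early genes 0 were called. Endothelial genes were lower at adjusted p alone in 8 of 23 and higher in 2, with 0 called. Among the markers of other tissues (9 of adipose tissue, 9 of small intestine, 6 of mesothelium, 2 of red cells, 6 of platelets) 0 were called.

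Clock genes, whose transcripts rise and fall over the day, also differed. No source used here gives the hour at which tissue was taken, and its part in these differences was not tested. Nr1d1, the repressor REV-ERB alpha, was 9.12, 9.10, 9.26 and 7.95 in acute colitis and 10.73, 11.28, 9.55, 10.78 and 10.76 after 3 cycles (difference -1.76, SE 0.55, adjusted p = 0.0376). Dbp, a clock output transcription factor, was 7.57, 6.90, 6.93 and 6.44 against 8.58, 9.16, 7.82, 8.43 and 8.42 (difference -1.53, SE 0.43, adjusted p = 0.02). Nfil3, which binds the same DNA sites as Dbp, was higher, at 6.88, 8.09, 6.88 and 7.07 against 6.05, 5.70, 6.38, 5.78 and 6.21 (difference 1.21, SE 0.24, adjusted p = 0.00124). None of the 3 overlapped between groups, and of 18 clock genes these 3 were called and 6 were lower at adjusted p alone (5.08% of all probe sets). With the array set as a term 5 were called lower, without F5 4, without B3 or F1 1, and without C3 or F3 0. Control mice were 9.97 ± 1.43 (SD, n = 5) for Nr1d1, with L1 and L2 below A1, A2 and A5. The call of Nr1d1 was lost without any one of B3, C3, F1, F3, G2 or G3, that of Dbp without C3 or F3 and that of Nfil3 without B3.

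**Figure D4:**
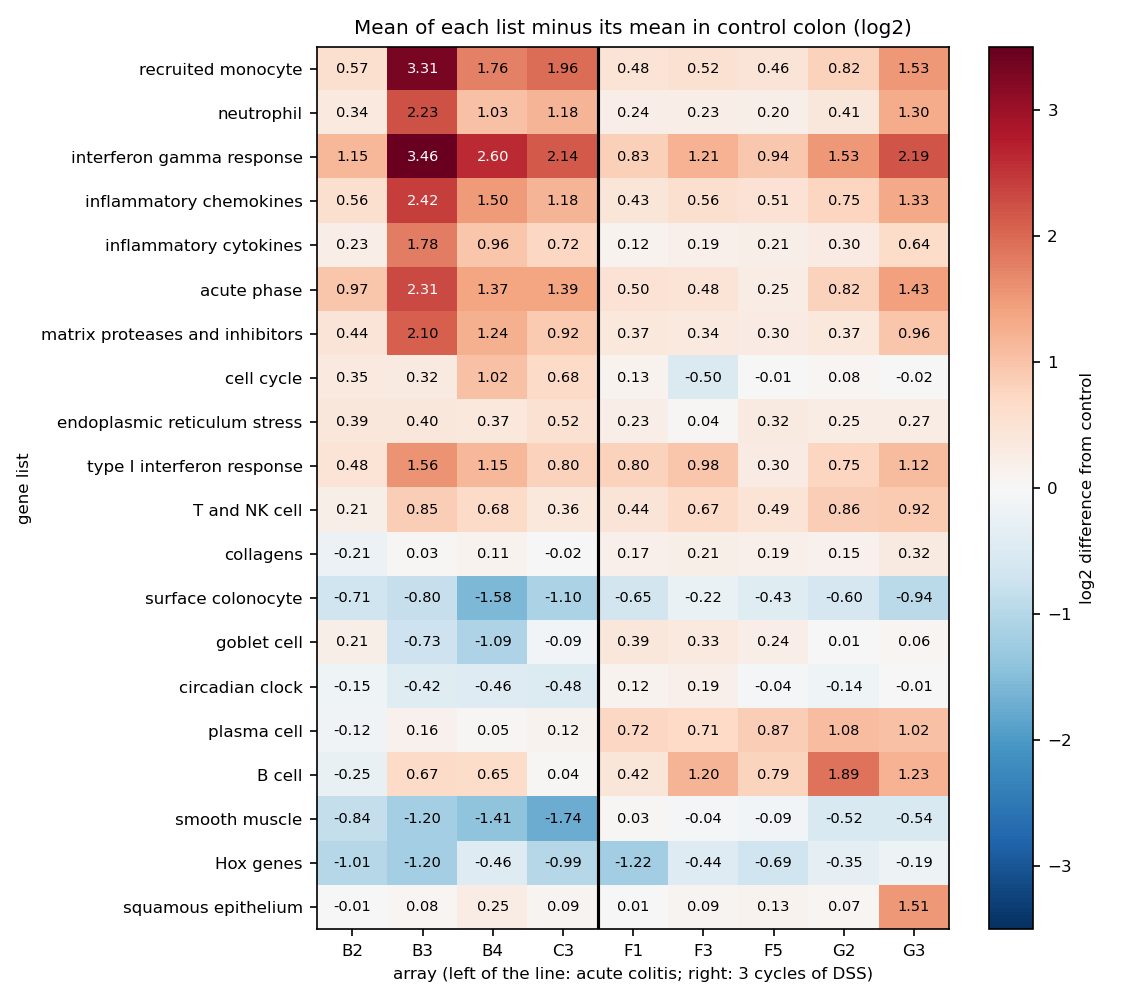
Mean log2 intensity of the measured genes of 20 lists (rows) in each acute colitis and 3-cycles array (columns), less the mean of the same list in the 5 control arrays. Smooth muscle is -0.84 to -1.74 in the acute arrays and -0.54 to 0.03 in the 3-cycles arrays, and the squamous list is 1.51 in G3 and at most 0.25 in the others.

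Fewer probe sets differed between 3 cycles and the smaller numbers of cycles. Between 3 cycles and 1 cycle, 43 probe sets (0.121%) were called, 26 higher and 17 lower after 3 cycles, and 0 when the array set entered the model. All 1-cycle arrays were in the first set and all 3-cycles arrays in the second. With the set as a term, this contrast rests on the set difference within acute colitis and 2 cycles, the groups with arrays in both sets. The 0 therefore cannot tell the array set from the number of cycles. Without F3 the numbers were 18 and 9, and without G3 21 and 7. Between 3 cycles and 2 cycles 0% were called by limma, with 4155 probe sets at an unadjusted p under 0.05. Of the 89 named genes called between acute colitis and 3 cycles, 0 were past an adjusted p of 0.05 between 3 cycles and either 1 or 2 cycles, with the lowest at 0.0895 and 0.216. Over all 35511 probe sets, 627 were past that level between 3 cycles and 1 cycle, and 1 between 3 cycles and 2 cycles. Among the 106 probe sets called higher in acute colitis 2 were past it against 1 cycle, and among the 206 called lower 6. Against 2 cycles it was 0 of each. With few past it among all probe sets, the 0 of 89 does not show that these genes are unchanged by the number of cycles. These comparisons share the 3-cycles arrays. Jchain averaged 11 ± 0.19 after 1 cycle, 11.21 ± 0.27 after 2 cycles and 11.04 ± 0.26 after 3 cycles (SD), and Actg2 10.99 ± 0.11, 11.10 ± 0.18 and 11.10 ± 0.32.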

How the data were processed

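Each mouse gave 1 colon sample on 1 Affymetrix Mouse Gene 1.0 ST array. The deposited values are log2 intensities, which the authors made from the probe intensities by RMA (background correction, quantile normalization and summary of the probes of a probe set) in R 2.12.2 per the labels. Read depth does not apply to arrays, and the number of arrays limits the precision. Gene symbols were those of the platform annotation: of 35511 probe sets, 21789 had 1 symbol, 1621 several and 12101 none, and only the first kind was named. Where a gene had several, the probe set with the highest mean over the 29 arrays was used.

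From these values, limma 3.58.1 (R 4.3.3) fitted 1 mean for each of the 6 labelled groups over all 29 arrays, and acute colitis minus 3 cycles, each of these groups minus controls and 3 cycles minus 1 and minus 2 cycles were taken as contrasts, with Benjamini-Hochberg adjustment over all probe sets. A call needed an adjusted p below 0.05 and more than a 2-fold change. SE and adjusted p come from this fit, which pools the spread of the 6 groups, and differences are on the log2 scale. The script was tested on simulated data with known changes. No source used here says that arrays of a group came from separate cages or experiments, so the p-values measure the spread between mice as sampled, pooled over the groups. Among probe sets called higher the median SD was 1.13 in acute colitis and 0.46 after 3 cycles. The pooled spread can thus understate that of the acute mice. For Il6 the SD was 2.21 in acute colitis and 0.02 in controls. Its adjusted p was 0.00891 in this fit and 0.223 in the limma fit of the 9 arrays alone.

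The comparison, the 36 gene lists, the 10 marker lists and the named genes were chosen with earlier results of these data known, so counts in a list are descriptions. Named genes were the 15 with the largest rise and the 15 with the largest fall among called genes whose groups did not overlap (immunoglobulin and T cell receptor segments apart), the 4 members (or fewer) of every list that differed most, and called marker genes. Further genes are marked in the text as named after their values were seen. Genes without a printed value of their own were named because they were called. Alternatives were the 9 arrays alone, the 2 sets of arrays as a term (divided at a log2 value of 10) or those above it alone, array weights, the label letter as a random block, eBayes with trend and robust settings, probe sets with a mean under 6 left out, probe sets without a single symbol left out, a second quantile normalization, median centring, other fold thresholds, the probe set of highest variance per gene, and each array left out in turn. The tables of promoters and microRNAs were those of RefSeq, and the figures were drawn from the same values.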

Additional observations from a re-analysis of the deposited data

Results flagged for a closer look

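Within the 4 acute arrays and the 5 3-cycles arrays, each named gene was examined for 1 array far from the others, as the gap to the nearest array over the whole range of the group (Dixon's ratio). Of 406 gene and group combinations, 38 passed the 95% critical value, where chance passes about 1 in 20. In what follows, the value of the array is given against the range of the others, and then the ratio.

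G3 of the 3-cycles group stood apart in 20 genes. Among genes of inflammation these were Retnlg (6.10 against 4.93 to 5.22, 0.751), S100a8 (6.67 against 4.85 to 5.06, 0.884), S100a9 (7.87 against 5.60 to 5.79, 0.914), Mmp8 (5.0 against 4.05 to 4.26, 0.782) and Mmp10 (8.02 against 6.47 to 6.85, 0.752). Chemokines and cytokines among them were Cxcl10 (8.49 against 6.24 to 6.76, 0.772), Cxcl5 (7.76 against 4.73 to 5.40, 0.780), Cxcl2 (6.84 against 4.21 to 4.61, 0.849), Ccl2 (7.39 against 5.93 to 6.29, 0.755) and Il1b (8.29 against 5.90 to 6.37, 0.804). Enzymes and transporters among them were Acod1 (7.26 against 5.69 to 6.05, 0.772), Hdc (6.63 against 5.40 to 5.69, 0.766), Slc16a3 (7.93 against 6.98 to 7.25, 0.715), Hk2 (9.56 against 8.92 to 9.03, 0.835) and Aqp8 (9.03 against 10.21 to 10.64, 0.730). Genes of squamous epithelium were Krt5 (10.91 against 5.75 to 5.85, 0.980), Krt13 (9.08 against 5.41 to 6.05, 0.827) and Dapl1 (8.67 against 4.64 to 5.37, 0.818). The others were the platelet gene Ppbp (10.79 against 5.11 to 5.94, 0.854) and the matrix gene Thbs2 (7.63 against 7.80 to 7.86, 0.730). G3 was the highest array for all but Aqp8 and Thbs2, for which it was the lowest.

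F1 was the lowest of the 3-cycles arrays for Ctse (9.34 against 10.19 to 10.52, 0.718), Tgm3 (7.59 against 10.40 to 11.43, 0.733), Cldn5 (6.74 against 7.26 to 7.40, 0.790), Vip (6.80 against 7.13 to 7.23, 0.773) and Hoxb13 (6.36 against 8.88 to 9.63, 0.771). F5 was the highest for Upk3b (6.23 against 5.72 to 5.81, 0.814).

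Among acute arrays, B3 was the highest for Chil3 (8.59 against 4.58 to 5.19, 0.846), Nfil3 (8.09 against 6.88 to 7.07, 0.843), Hp (9.01 against 7.35 to 7.60, 0.850) and Pecam1 (7.78 against 7.45 to 7.48, 0.901) and the lowest for Krt18 (10.07 against 10.52 to 10.58, 0.874). C3 was the lowest for Nr1d1 (7.95 against 9.10 to 9.26, 0.880), Col14a1 (6.53 against 7.02 to 7.07, 0.897) and Gfra2 (5.79 against 6.27 to 6.35, 0.857). B2 was the lowest for Ido1 (8.70 against 10.24 to 10.48, 0.866), Irf4 (5.0 against 5.26 to 5.31, 0.838) and Slc16a3 (7.48 against 8.44 to 8.58, 0.871), and B4 the highest for Tnfrsf17 (5.28 against 4.94 to 4.96, 0.935).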

How the results depend on the processing

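Between acute colitis and 3 cycles, no alternative turned the direction of a named gene that was called. The direction was checked for the named genes only. With 106 probe sets called higher, the number was 28 in a fit of the 9 arrays alone and 70 with dim probe sets left out, and 2184 with no fold threshold and 17 above a 4-fold change. With 206 called lower, it was 1804 with no fold threshold and 64 above a 4-fold change. Leaving out each array in turn gave 57 (without B3) to 198 (without B2) higher and 177 to 253 lower. The other alternatives for these numbers stayed within 1.5 times, with 89 to 131 higher and 143 to 271 lower. Between 3 cycles and 1 cycle, 26 higher and 17 lower became 0 and 0 with the 2 sets of arrays as a term, and leaving out each 3-cycles array gave 18 to 33 higher and 7 to 15 lower. The 0 and 0 cannot tell the array set from the number of cycles, since these groups lie in different sets. Between 3 cycles and 2 cycles, limma called 0 in every alternative run, with 4155 probe sets at an unadjusted p under 0.05. The cause of these shifts was not tested, apart from the fold thresholds, which count fewer or more probe sets by construction.

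Of the 89 named genes that were called, 43 were called in the fit of the 9 arrays alone, 73 with the 2 sets of arrays as a term, 66 in the arrays above 10 alone, 75 with array weights, 75 with dim probe sets left out, 88 with median centring, and 65 to 85 with 1 array left out. All 89 were called with the label letter as a random block, the trended and robust prior, probe sets without a single symbol left out and a second quantile normalization. No paired analysis was possible because the replicate names are not shared between the groups.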
